A study of Homo sapiens with 6 samples.

Results

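NF-kB is a family of dimeric transcription factors built from 5 Rel subunits (NFKB1, NFKB2, REL, RELA and RELB), and this account follows those subunits together with 3 IkB inhibitors (NFKBIA, NFKBIB, NFKBIE) and 2 ubiquitin enzymes of the feedback loop (TNFAIP3, BIRC3). These 10 genes, of 26334 in the count table, were chosen by gene symbol after known NF-kB targets had been seen to be higher in shWDR5 cells. The measured values behind that choice are the read counts of the same comparison, so the differences given here for the 10 genes are a description and are read as no test. The cells were MCF10DCIS.com, a human breast line of the MCF10A lineage that models ductal carcinoma in situ. The control group, shLuc, carried a hairpin against luciferase, and the silenced group, shWDR5, carried hairpin RNA against WDR5, a core subunit of the histone H3 lysine 4 methyltransferase complexes. The labels give a single vector for each group and the study's methods describe pooled WDR5 hairpins, so an effect of the knockdown cannot be told apart from one of a hairpin on other messages. Both groups received the same U6-driven vector backbone, which also encodes TagRFP and puromycin resistance, and all cells were selected with 3 µg/ml of puromycin and grown in DMEM/F12 with horse serum. No untransduced cells are among the 6 libraries, so both groups carry the vector, infection and selection. Each group has 3 libraries of poly-A RNA, and nothing in the labels says whether they came from separate cultures, so p-values measure only the spread between these libraries, which may be technical.

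In resting cells the Rel dimers are held inactive by IkB proteins, or by the IkB-like tails of the NFKB1 and NFKB2 precursors. Tumour necrosis factor, interleukin 1 and Toll-like receptors activate the IkB kinase, which marks IkB for destruction and frees the dimers, while a slower non-canonical route acts through RELB and processed NFKB2. Active NF-kB raises transcription of several of its own components and inhibitors, above all NFKBIA and TNFAIP3, which closes a negative feedback loop. In epithelial cells the pathway is best known for chemokine, acute-phase and survival genes.

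Members of this family are known for kB sites in their own promoters. RefSeq promoter windows (GRCh38.p14, 250 bases before to 50 bases after a transcript start) were searched on both strands for the kappaB consensus, a 10-base motif of 3 G, a purine, 2 free positions, 2 pyrimidines and 2 C, with overlapping matches merged into 1 site. Windows were held for 8 of the 10 genes, all but RELB and NFKBIE. At least 1 match lay in a window of 7 of those 8 genes, and in 8 of their 13 windows. Of all 35116 windows in the table, 11.3% held a match, and of all 27305 genes in it, 13.3% did. Among the 11381 genes with a window that were also tested for a difference below, the share was 16.9%. A high share was not particular to the 10 genes: of 29 known NF-kB targets with a window, 17 (58.6%) held a match. The stretches below are a selection of the matches that begin before the start, shown because the results turn on these genes, with the match (merged where matches overlap) in capitals, each read 5′ to 3′ on the gene's own strand, and stretches that touch a GENCODE exon were kept to at most 30 bases.
NFKBIA, chr14:35404801-35404850, minus strand: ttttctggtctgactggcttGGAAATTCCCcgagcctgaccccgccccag
TNFAIP3 distal, chr6:137867182-137867211, plus strand: acgtgactttGGAAAGTCCCgtggaaatcc
TNFAIP3 proximal, chr6:137867194-137867223, plus strand: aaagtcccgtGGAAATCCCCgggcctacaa
NFKB1, chr4:102501300-102501329, plus strand: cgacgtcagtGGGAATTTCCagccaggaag
NFKB2 window 2, chr10:102394462-102394490, plus strand: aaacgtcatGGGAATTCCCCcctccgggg
NFKB2 window 3, chr10:102395674-102395703, plus strand: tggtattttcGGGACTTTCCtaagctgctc
BIRC3 distal, chr11:102317265-102317314, plus strand: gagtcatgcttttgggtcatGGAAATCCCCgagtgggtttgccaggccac
BIRC3 proximal, chr11:102317329-102317378, plus strand: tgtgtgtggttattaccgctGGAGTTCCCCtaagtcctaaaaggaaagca
REL, chr2:60881518-60881546, plus strand: gtcagccgcGGGAAATTCCCctcccgcca
NFKBIB window 2, chr19:38899932-38899960, plus strand: ggcgtggtgGGGAATTTCCCgcagggcgg

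The match of NFKB1 began 49 bases before its start, that of REL 47 bases before, and that of NFKBIA 81 bases before. TNFAIP3 held a pair of matches that began 67 and 55 bases before the start, so close that they share flanking bases in the stretches printed above. BIRC3 also held 2 matches, which began 199 and 135 bases before the start. NFKB2 held 2 matches in each of its windows 2 and 3 and none in window 1. NFKBIB held 2 matches in its window 2, one of them after the start, and none in window 1. No match lay in either window of RELA. A match is a run of letters in these windows and no measure of binding, and which of the alternative starts these cells use was not measured.

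The libraries held between 38218108 and 57640167 counts, and levels are given as CPM, the counts scaled to a common library total with TMM, edgeR's correction for differences in library make-up. The message of WDR5 itself was 52.6, 48.5 and 51.3 CPM in the shLuc libraries and 23.4, 24.4 and 20.8 CPM in the shWDR5 libraries, so every silenced library lay below every control. Its log2 fold change was -1.15 ± 0.07 (SE, n = 3 per group, edgeR quasi-likelihood adjusted p = 8.67e-07), a 2.22-fold lower level. In that fit a gene is called when its Benjamini-Hochberg adjusted p is under 0.05, and of 16117 genes tested 26.6% were called higher and 29.9% lower in shWDR5. Epithelial markers were plentiful, with summed levels of 7684 to 8612 CPM in shLuc and 12799 to 14606 CPM in shWDR5 for 8 basal genes, of which 7 were called higher and 1 lower. The summed level of 8 luminal genes was 4135 to 4326 CPM and 3714 to 3992 CPM, with 1 called higher and 3 lower. Most of that sum was KRT8 and KRT18, which were not called. CDH1 was called lower, from 496 to 242 CPM, as were EPCAM, from 283 to 225 CPM, and GATA3, from 35.0 to 26.6 CPM. KRT19 was called higher, from 1.31 to 4.68 CPM. Of the hormone receptor genes, ESR1 was not called, at 3.68 and 3.44 CPM, and PGR had at most 2 counts in a library. Of 10 immune cell markers, which could carry NF-kB messages of their own, the sum was 15.8 to 18.1 CPM in shLuc and 16.1 to 18.9 CPM in shWDR5, and CD3E was at 0 in every library. Only 4 of these 10 passed the filter, and the sum was mostly CD68, with means of 11.9 and 11.1 CPM. ITGAM was called higher, from 0.58 to 2.34 CPM, CD14 was called lower, from 1.63 to 0.79 CPM, and PTPRC, which was not tested, was higher in all shWDR5 libraries at a mean of 0.10 CPM against 0.015 CPM. The sum of 10 fibroblast and endothelial markers was 30.1 to 31.5 CPM and 20.4 to 23.1 CPM, with LUM at 0 in every library and 2 called lower. The part of these shifts in the results below was not tested.

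Of the 10 NF-kB genes, all of which passed the filter on low counts, 7 were called higher in shWDR5 and none was called lower. The background shares are the 26.6% and 29.9% above, and since the genes were chosen with this contrast known, nothing is read from the count. In 9 of the 10, all 3 shWDR5 libraries lay above all 3 shLuc libraries, which holds for 29.9% of all genes tested, and in none did they all lie below, which holds for 32.4%. The median log2 fold change of the 10 was 0.48, against -0.01 over all genes tested. TNFAIP3 stood highest, RELB and NFKBIA followed, NFKB1, RELA and NFKB2 formed a middle group, and BIRC3 had the smallest of the called differences. NFKBIE, NFKBIB and REL were not called. In bulk RNA, a change in the share of cells of a type and a change in RNA per cell cannot be told apart.

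**Figure D1:**
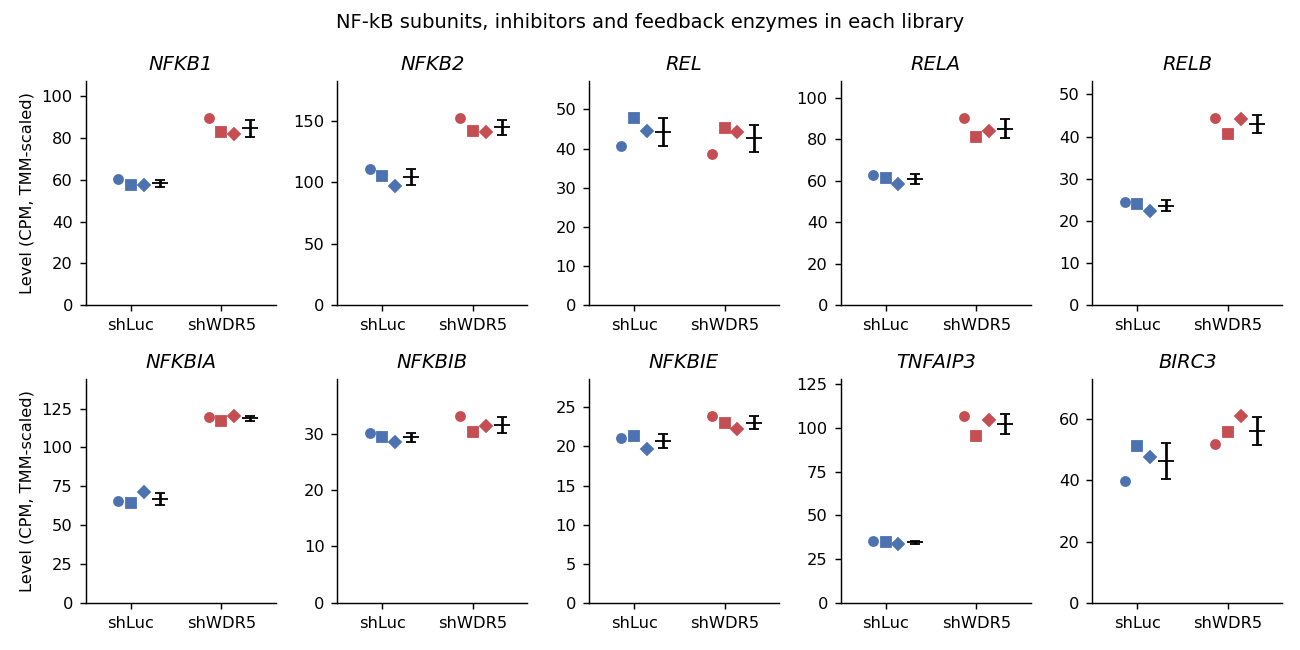
Level of each of the 10 genes (CPM, TMM-scaled, vertical axes from 0) in the 3 shLuc libraries (blue) and the 3 shWDR5 libraries (red); circles, squares and diamonds are replicates 1, 2 and 3, and the black bar is the mean ± SD. The groups are apart in every panel but REL, with the widest gap in TNFAIP3 and the narrowest in NFKBIB and BIRC3.

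Among the Rel subunits, NFKB1 (chr4:103422486-103538459 in hg19, the build of the counts and of each gene position that follows) encodes the p105 precursor of p50, the DNA-binding partner of the canonical dimer. Its level was 60.3, 57.6 and 57.3 CPM in shLuc and 89.3, 82.6 and 82.0 CPM in shWDR5. The groups were well apart, and replicate 1 was the highest in each. The log2 fold change was 0.54 ± 0.06 (SE, n = 3 per group), or 1.45-fold.

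RELA (chr11:65421067-65430443) encodes p65, which carries the transactivation domain of the canonical dimer. It measured 63.0, 61.5 and 58.2 CPM in shLuc and 90.1, 81.0 and 84.1 CPM in shWDR5, again with replicate 1 highest in both groups and no overlap. The log2 fold change of RELA was 0.48 ± 0.06, or 1.40-fold, close to that of its partner NFKB1. Neither of the RELA promoter windows held a match to the consensus.

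NFKB2 (chr10:104153867-104162286) encodes p100, the precursor of p52 and itself an inhibitor of RELB. Its shLuc libraries read 111, 105 and 97.2 CPM and its shWDR5 libraries 152, 142 and 141 CPM. The shWDR5 values lay above all the controls, and the log2 fold change was 0.48 ± 0.06, or 1.39-fold. RELB (chr19:45504707-45541456), the transactivating partner of the non-canonical route, measured 24.6, 24.1 and 22.3 CPM in shLuc. It measured 44.3, 40.6 and 44.1 CPM in shWDR5, a log2 fold change of 0.86 ± 0.07, or 1.82-fold. This was the largest difference among the subunits.

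REL (chr2:61108630-61155291) encodes c-Rel, a subunit best known from lymphoid cells. It measured 40.6, 47.7 and 44.6 CPM in shLuc and 38.7, 45.2 and 44.1 CPM in shWDR5, and it was the only one of the 10 genes whose groups overlapped. Replicate 1 was the lowest in both groups. The log2 fold change of REL was -0.05 ± 0.08, and without shWDR5 replicate 1 it was 0.013, so no direction is given.

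The inhibitor NFKBIA (chr14:35870716-35873960) encodes IkB-alpha, the fast-turnover inhibitor that is resynthesised after NF-kB activation. Its level was 65.2, 64.1 and 71.2 CPM in shLuc and 119, 117 and 120.1 CPM in shWDR5. The 3 silenced libraries were tightly grouped and far above the controls. The log2 fold change was 0.83 ± 0.06 (SE, n = 3 per group), or 1.78-fold.

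NFKBIB (chr19:39390340-39399534) encodes IkB-beta, which is known to turn over slowly and to be less tied to NF-kB activity. It measured 30.1, 29.4 and 28.5 CPM in shLuc and 33.1, 30.3 and 31.4 CPM in shWDR5. The ranges almost touched, the log2 fold change was 0.11 ± 0.06, and the gene was not called. Exons of NFKBIB overlap exons of SIRT2 on the opposite strand in the count table, and reads of the pair cannot be told apart without strand. NFKBIE (chr6:44225903-44233525), which encodes IkB-epsilon, measured 21.0, 21.4 and 19.6 CPM in shLuc and 23.9, 23.0 and 22.2 CPM in shWDR5. All shWDR5 libraries were above all controls by a small margin, and the log2 fold change of 0.16 ± 0.07 was not called, although it passed under 2 of 11 alternative fits.

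TNFAIP3 (chr6:138188325-138204451) encodes A20, a ubiquitin-editing enzyme that shuts down signalling from the tumour necrosis factor and Toll-like receptors. It measured 35.3, 34.7 and 33.6 CPM in shLuc and 107, 95.4 and 104 CPM in shWDR5. No control came near a silenced library. The log2 fold change of TNFAIP3 was 1.57 ± 0.06 (SE, n = 3 per group), or 2.96-fold, larger than that of 97.6% of all genes tested.

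BIRC3 (chr11:102188181-102210135) encodes cIAP2, a ubiquitin ligase that acts at tumour necrosis factor receptors and restrains the non-canonical kinase. It measured 39.7, 51.2 and 47.7 CPM in shLuc and 51.6, 55.6 and 60.9 CPM in shWDR5. The highest control and the lowest silenced library were nearly level, and the spread among controls was the widest of the 10 genes relative to the mean. The log2 fold change was 0.28 ± 0.10, or 1.21-fold. This call was not stable: it was lost without shLuc replicate 1 (0.20), shLuc replicate 3 (0.30), shWDR5 replicate 2 (0.28) or shWDR5 replicate 3 (0.22). Without shLuc replicate 3 or shWDR5 replicate 2 the difference was no smaller, but its SE was 0.12. The call was also lost when library totals were used without TMM (0.22). It held with a term for replicate number in the fit (0.28, SE 0.06).

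**Figure D2:**
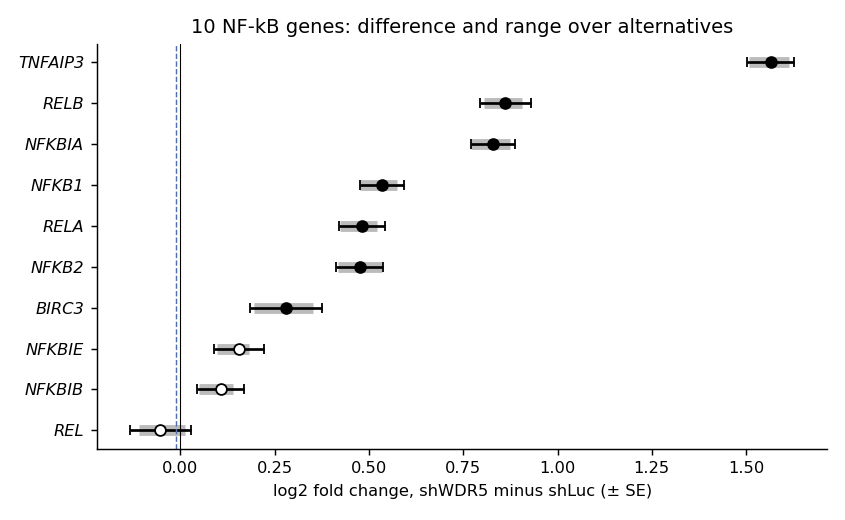
Log2 fold change (shWDR5 minus shLuc) of the 10 genes with its SE (black bars), filled where the gene was called and open where not; grey bars span the 11 alternative fits, and the dashed line is the median of all genes tested. TNFAIP3 at 1.57 stands apart, RELB and NFKBIA lie near 0.86 and 0.83, and the REL bar crosses 0.

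To compare messages of different genes, levels were also expressed per length as RPKM, the CPM divided by the summed exon length in kilobases. NFKBIA was the most abundant of the 10 in shLuc, at 42.7 ± 2.4 RPKM (SD, n = 3). NFKB2 followed at 26.8 ± 1.7 RPKM and RELA at 23.6 ± 1.0 RPKM. Next were NFKB1 at 14.3 RPKM, NFKBIB at 12.5 RPKM, RELB at 10.4 RPKM and NFKBIE at 8.01 RPKM. None of these neighbours overlapped over the 3 libraries. TNFAIP3 (7.28 RPKM), BIRC3 (6.68 RPKM) and REL (5.66 RPKM) closed the order, and there the range of BIRC3 overlapped those of both TNFAIP3 and REL.

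In shWDR5 the same 3 genes led, with NFKBIA at 75.8 ± 1.0 RPKM, NFKB2 at 37.3 ± 1.6 RPKM and RELA at 33.0 ± 1.8 RPKM. TNFAIP3 moved from the 8th to the 4th place at 21.6 ± 1.3 RPKM, where its range overlapped that of NFKB1 at 20.7 ± 1.0 RPKM. RELB came next at 18.9 ± 0.9 RPKM, followed by NFKBIB at 13.5 RPKM, NFKBIE at 8.92 RPKM and BIRC3 at 8.11 RPKM. The ranges of NFKBIE and BIRC3 overlapped, and REL was last in this group also, at 5.45 RPKM.

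The make-up of the subunit pool was compared as each gene's percent of the summed RPKM of the 5 subunits, a share of messages and not of protein. NFKB2 gave 33.2% ± 0.8 in shLuc and 32.3% ± 0.4 in shWDR5 (SD, n = 3), RELA gave 29.2% and 28.6%, and NFKB1 gave 17.7% and 18.0%. Those 3 shares moved by less than 1 percentage point, although that of RELA did not overlap between the groups, at 29.21, 29.21 and 29.29% in shLuc and 29.02, 28.10 and 28.61% in shWDR5. RELB gave 12.9, 13.0 and 12.7% in the shLuc libraries and 16.2, 16.0 and 17.0% in the shWDR5 libraries, with no overlap. REL gave 6.20, 7.46 and 7.38% in shLuc and 4.10, 5.16 and 4.94% in shWDR5, also without overlap. The share of RELB was thus higher and that of REL lower in the silenced cells, on a summed level that went from 80.8 ± 3.4 to 115 ± 4 RPKM. REL itself was not called, at 5.66 RPKM in shLuc and 5.45 RPKM in shWDR5, so its lower share goes with the higher sum.

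The 3 inhibitors summed to 63.2 ± 1.8 RPKM in shLuc and 98.2 ± 1.5 RPKM in shWDR5. Their ratio to the summed subunits was 0.748, 0.755 and 0.846 in the shLuc libraries and 0.826, 0.863 and 0.865 in the shWDR5 libraries. These ranges overlapped, since shLuc replicate 3 lay above shWDR5 replicate 1. NFKBIA carried most of the higher inhibitor sum, with 42.7 RPKM in shLuc and 75.8 RPKM in shWDR5, while NFKBIB and NFKBIE were not called.

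**Figure D3:**
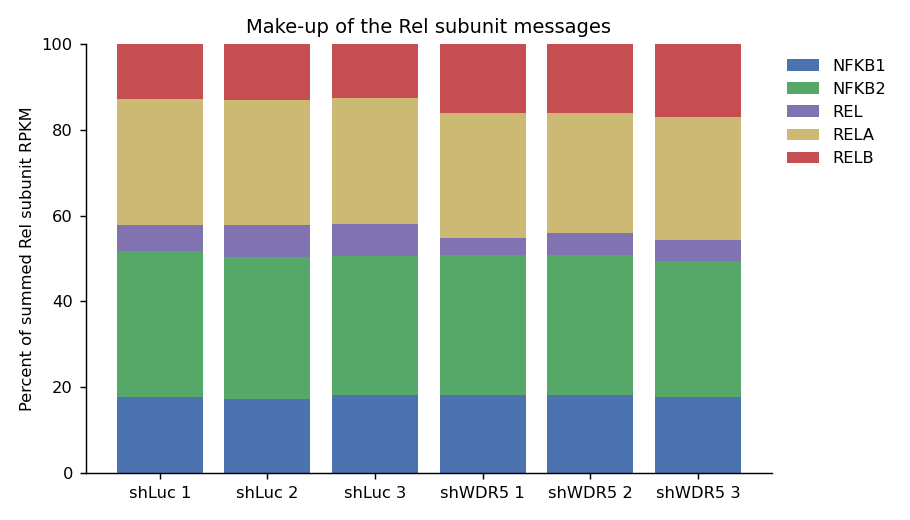
Share of each Rel subunit in the summed subunit RPKM (percent, stacked to 100) in each of the 6 libraries. The RELB segment is wider in the 3 shWDR5 bars (16.0 to 17.0%) than in the 3 shLuc bars (12.7 to 13.0%), the REL segment is narrower, and the others hardly move.

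The rest of the pathway was read from lists by role, which were drawn up with results of these data known, against the same background of 26.6% called higher and 29.9% called lower. Of the 14 other inhibitors tested, 4 were called higher and 6 lower, with a median log2 fold change of -0.06. Calls in both directions are also common over all genes tested, so nothing is read from these counts. TNIP3, an A20-binding protein, was 0.63 ± 0.11 CPM in shLuc and 2.25 ± 0.18 CPM in shWDR5 (SD, n = 3), a log2 fold change of 1.85 ± 0.16. NFKBIZ, an atypical nuclear IkB that acts as a co-activator, went from 81.1 ± 4.3 to 126 ± 5 CPM (0.63 ± 0.06). OTULIN, which removes linear ubiquitin chains, fell by 0.74 on the log2 scale, from 43.7 ± 3.2 to 26.2 ± 1.4 CPM. PDLIM2, a nuclear ubiquitin ligase for RELA, fell by 0.64, from 52.5 ± 3.9 to 33.6 ± 2.9 CPM. The enzymes OTULIN and PDLIM2, named as the largest falls of the list, were lower where TNFAIP3 was higher. ITCH was also called lower, from 153 to 102 CPM. CYLD, TAX1BP1 and RNF11 were not called, and TNIP1 was called higher, from 276 to 390 CPM.

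Of the 10 IkB kinases and activators tested, 3 were called higher and 2 lower, and the median log2 fold change was 0.00. IKBKE, an IkB kinase relative that acts in innate immunity, went from 31.7 ± 2.2 to 51.9 ± 2.5 CPM (0.71 ± 0.07). IKBKG, the regulatory subunit NEMO, went from 25.3 ± 2.1 to 33.4 ± 2.0 CPM (0.40 ± 0.08), and it has a near-identical pseudogene copy that could share its reads. CHUK, the catalytic subunit IKK-alpha, fell by 0.33, from 34.8 ± 2.8 to 27.6 ± 2.7 CPM. TAB1, an adaptor of the upstream kinase MAP3K7, fell by 0.25, from 21.2 ± 0.2 to 17.8 ± 0.4 CPM.

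Of 17 receptor adaptors, 10 were called higher and 2 lower, with a median log2 fold change of 0.23. TRAF1, itself a known NF-kB target, was low and went from 1.58 ± 0.30 to 3.18 ± 0.82 CPM (0.99 ± 0.21). TRADD, the adaptor of the tumour necrosis factor receptor, went from 11.02 ± 0.98 to 15.7 ± 1.4 CPM (0.51 ± 0.09). TRAF5 fell by 0.92, from 32.9 ± 1.2 to 17.3 ± 2.0 CPM. IRAK4, a kinase of the interleukin 1 and Toll-like receptors, fell by 0.20, from 12.8 ± 1.0 to 11.1 ± 0.4 CPM. The call of IRAK4 was lost without any single library but shLuc replicate 1, with log2 fold changes of -0.24 without shLuc replicate 2, -0.14 without shLuc replicate 3, -0.21 without shWDR5 replicate 1, -0.23 without shWDR5 replicate 2 and -0.18 without shWDR5 replicate 3.

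Receptors split evenly. Of 16 listed, 14 were tested, 5 were called higher and 4 lower, and the median log2 fold change was -0.01. The decoy receptor IL1R2, which binds interleukin 1 without signalling, was low in shLuc at 0.36 ± 0.10 CPM and reached 1.62 ± 0.29 CPM in shWDR5 (2.20 ± 0.24). IL18R1, a receptor chain for interleukin 18, went from 1.77 ± 0.09 to 2.49 ± 0.23 CPM (0.49 ± 0.12). TLR1 fell by 0.95, from 7.04 ± 0.63 to 3.62 ± 0.42 CPM. The signalling receptor IL1R1 fell by 0.80, from 7.39 ± 0.80 to 4.21 ± 0.32 CPM. The decoy IL1R2 and the signalling chain IL1R1 thus differed in direction, but both were named as the largest changes of the list. IL1RAP, a more abundant chain of these receptors, was not called, at 210 ± 24 CPM in shLuc and 207 ± 23 CPM in shWDR5. Its log2 fold change was -0.02 ± 0.10.

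Of 15 ligands, 11 were tested, 6 were called higher and 2 lower, and the median log2 fold change was 1.01. Many of these messages were low, with a median shLuc level of 0.70 CPM over the 15 listed. Among the plentiful ligands, IL1A was called higher, from 173 to 350 CPM. IL1B was not called, at 217 CPM in shLuc and 203 CPM in shWDR5. LTB, a ligand of the non-canonical route, was 2.81, 2.42 and 1.78 CPM in shLuc and 16.6, 14.9 and 16.5 CPM in shWDR5, a log2 fold change of 2.76 ± 0.13. TNF was 0.26, 0.13 and 0.20 CPM in shLuc and 1.10, 1.00 and 1.15 CPM in shWDR5 (2.40 ± 0.25), a low message in both groups. TNFSF12 fell by 0.62, from 1.62 ± 0.14 to 1.05 ± 0.24 CPM. IL18 fell by 0.62 as well, from 233 ± 11 to 152 ± 11 CPM.

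Known NF-kB targets, the kind of gene whose levels led to the choice of this family, were called higher in 25 of 36 tested, and 4 were called lower. Which targets had been seen first is not given, and nothing is read from this count. Their median log2 fold change was 0.52. CSF3, which encodes the granulocyte growth factor G-CSF, went from 0.21 ± 0.05 to 3.97 ± 0.34 CPM (4.23 ± 0.19). Its shLuc level rests on only 12, 9 and 6 counts. MMP9, a secreted gelatinase, went from 6.05 ± 0.68 to 77.7 ± 16.1 CPM (3.68 ± 0.16). The chemokine CXCL10 went from 0.98 ± 0.14 to 10.3 ± 0.6 CPM (3.39 ± 0.12), and CXCL3, whose reads could be shared with its close paralogs, went from 2.69 ± 0.21 to 16.1 ± 1.9 CPM (2.58 ± 0.11). Of the 4 called lower, the survival gene BCL2A1 fell by 0.61, from 6.34 ± 0.56 to 4.14 ± 0.50 CPM, and the survival gene BCL2L1 fell by 0.22, from 84.3 ± 3.7 to 72.5 ± 3.1 CPM. GADD45B, a stress-response gene, fell by 0.39 to 9.83 ± 0.81 CPM, and the epithelial factor ELF3 fell by 0.28 to 112 ± 5 CPM.

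**Figure D4:**
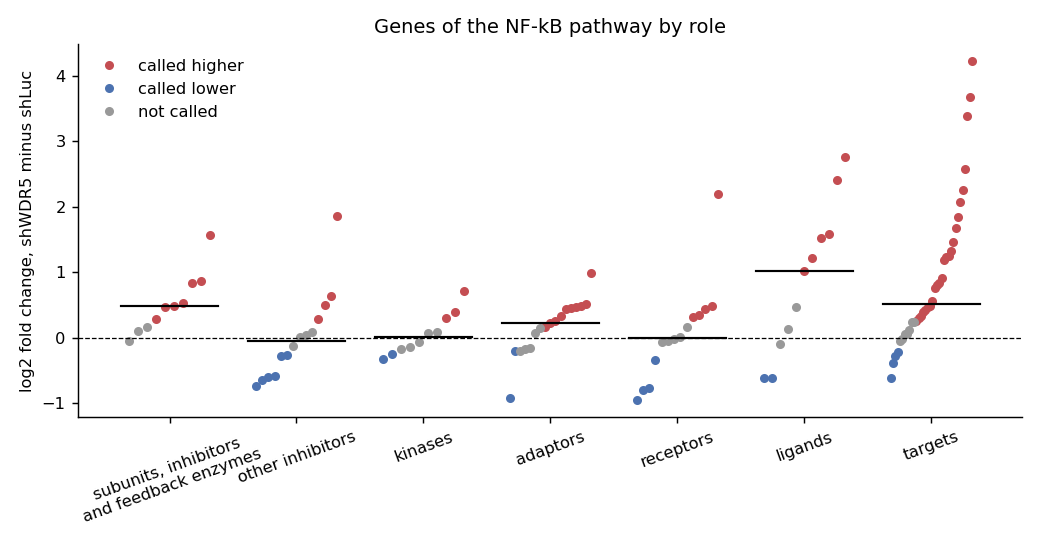
Log2 fold change (shWDR5 minus shLuc) of each tested gene of the NF-kB pathway, grouped by role and ordered within a role; red points were called higher, blue points lower and grey points not, short black lines are medians and the dashed line is the median of all genes tested. The medians of ligands (1.01), targets (0.52), the 10 subunit, inhibitor and feedback genes (0.48) and adaptors (0.23) lie above the dashed line. Those of kinases (0.00) and receptors (-0.01) lie next to the line and that of other inhibitors (-0.06) just below it. Every group has genes on both sides of the line.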

How the data were processed

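RNA sequencing counts were analysed for 3 shLuc and 3 shWDR5 libraries of MCF10DCIS.com, grouped by the sample titles. The authors prepared TruSeq poly-A libraries and deposited raw counts per gene; per the submitters' processing notes, TopHat2 2.1.0, featureCounts and edgeR 3.2.2 were used on hg19, and the strand setting is not given in the sources used here. A second deposited table holds only the submitters' own fold changes and p-values and was not used. The gene lists and members were chosen with earlier results of these data known.

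Genes passing filterByExpr were scaled by TMM and tested across all genes with edgeR 4.0.16 (glmQLFit, glmQLFTest, group as the only term) in R 4.3.3, with Benjamini-Hochberg adjustment at 0.05. SE is the fitted log2 fold change divided by the square root of F. The fit was tested on simulated data and missed the recovery first required of the smaller simulated fold, both with a fixed spread and with the spread estimated from these counts. The requirement was then limited to genes of at least 1 CPM, which the fit met with the estimated spread and not with the fixed one, and with the estimated spread no smaller change under 1 CPM was recovered. A low message that was not called may therefore have changed. RPKM used the deposited length column and the TMM-scaled total. Alternatives were RLE scaling, unscaled totals, no filter, DESeq2 1.42.0, a replicate block, added limits on fold (0.6) and RPKM (0.5), and leaving out each library. Beside the 10 genes and WDR5, a naming rule took the called genes with the largest rise and fall. It took up to 2 each way per list and 4 each way for targets. Cell type markers and a few other genes are named beside them. Count intervals are not given, since the spread between libraries exceeded counting noise. Promoter sequences come from RefSeq (GRCh38.p14), and no coordinate was converted between builds.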

Additional observations from a re-analysis of the deposited data

How the results depend on the processing

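The direction and call of NFKB1, NFKB2, RELA, RELB, NFKBIA and TNFAIP3 held under the 11 alternative fits that keep the call rule. NFKBIE passed with RLE scaling (0.17) and with the replicate block (0.16), BIRC3 lost its call under 5 alternatives, and REL ranged from -0.0971 to 0.0126 when single libraries were left out, turning positive without shWDR5 replicate 1; the cause was not tested. Of WDR5 and the genes taken by the naming rule, 29 in all, 28 kept their call in those 11 fits. IRAK4 lost its call under 7 alternatives, RLE scaling (-0.19) and DESeq2 (-0.19) among them. Limits on fold and RPKM can only remove calls by construction, and 9 of those 29 genes lost theirs, as did NFKB1, NFKB2, RELA and BIRC3. With these limits the calls were 1274 genes higher and 1688 lower in place of 4291 and 4821. Of the 10 NF-kB genes, 3 were called higher in place of 7. Calls were 2 higher and 3 lower among other inhibitors, 1 higher and 0 lower among kinases, and 1 higher and 1 lower among adaptors. Receptors gave 1 higher and 3 lower, and ligands 5 higher and 2 lower. Targets gave 17 higher in place of 25, and 1 lower in place of 4. Lower calls numbered 4 kinases and 4 adaptors with unscaled totals, 4 kinases and 4 adaptors with the replicate block, and 1 adaptor with RLE scaling or DESeq2. Adaptors called lower ranged from 1 to 3 when single libraries were left out, with 1 without shLuc replicate 2 or any single shWDR5 library. Unscaled totals moved the median of all genes from -0.01 to -0.07, gave 3705 genes higher and 5498 lower, and put NFKBIA at 74.3 RPKM in shWDR5. With summed CPM the inhibitor ratio was 0.40 in shLuc and 0.43 in shWDR5. Same-numbered libraries deviated together with r of 0.56, 0.06 and 0.20 for replicates 1, 2 and 3. The replicate 1 libraries thus shared part of their deviation, while shLuc replicate 2 correlated best with shWDR5 replicate 3 (0.36). Whether same-numbered libraries were handled together is not given, and the main fit held group as its only term. The replicate block called 4901 genes higher, 5511 lower and 8 of the 10 NF-kB genes higher. With it the SE of NFKB1 was 0.040 in place of 0.058. Depth limits the low messages most: TNF had 5 to 13 counts, CSF3 had 6 to 12, IL1R2 had 13 to 18 and TNIP3 had 24 to 29 in a shLuc library.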
